A study of Macaca mulatta with 2 samples.

Results

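The genes described here carry glucose and glycogen to pyruvate and lactate and regulate that route in the optic nerve of the rhesus macaque. They were chosen by name: 35 genes for glucose and lactate carriers, the enzymes of glycolysis, lactate dehydrogenase, pyruvate dehydrogenase and its kinases, the regulatory phosphofructokinases and glycogen turnover. Of these, 34 were listed among the 16684 genes of the expression table, and *GPD1*, the cytosolic glycerol phosphate dehydrogenase, was not listed. The samples were 2 libraries of total RNA from optic nerves of wild-type, untreated *Macaca mulatta*, named Rep1 and Rep2 in the table. The study's methods give the source as an adult male whose eyes were taken after death, so the libraries may come from 1 animal, and their spread may be technical. There was 1 condition, so nothing was compared with a control and no gene could pass a test.

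Glycolysis splits glucose into pyruvate, and pyruvate is either reduced to lactate or passed to mitochondria through pyruvate dehydrogenase. In white matter, glycogen is stored mainly in astrocytes, and lactate made by glia can leave through monocarboxylate transporters and be taken up by axons as fuel, which is called the lactate shuttle. Many steps have several isoenzymes that differ between cell types, for example *ENO2*, the enolase named for neurons, and *ENO1*, the enolase found in most cells.

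Levels are TPM (transcripts scaled to the same total in each library), which divide reads by gene length and therefore allow levels of different genes to be set side by side within a library. Rep1 was the shallower library: 1 of its reads was worth as many TPM as 17.2 reads of Rep2, and 38.5% of listed genes were at 0 in Rep1 against 12.5% in Rep2. The optic nerve label was met by glial markers in both libraries. The 8 oligodendrocyte markers summed to 46086 in Rep1 and 212682 TPM in Rep2, and the 7 astrocyte markers to 1098 and 7321 TPM. *MBP* made up most of the oligodendrocyte sums, at 43722 in Rep1 and 199595 TPM in Rep2. In Rep1 the astrocyte sum was mostly *GFAP*, *S100B* and *SLC1A3*. The other astrocyte markers were low there: *AQP4* 3.26, *GJA1* 9.11, *SLC1A2* 3.07 and *ALDH1L1* 1.23 TPM. Rep1 also carried 3322 TPM of 8 photoreceptor markers and 1924 TPM of 6 neuron markers, against 10.2 and 47.4 TPM in Rep2. The rod gene *GNAT1* (2763 and 1.56 TPM) and the synaptic genes *SNAP25* (1122 and 4.99 TPM) and *SYT1* (769 and 11.8 TPM) made up most of these sums in Rep1. The photoreceptor gene *CRX* was at 9.76 TPM in Rep1 and at 0 in Rep2, whereas *PDE6B*, *SAG*, *RCVRN* and *NRL* stayed under 4 TPM in both libraries. In tissue RNA, fewer cells of a type and less RNA per cell cannot be told apart.

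All 34 listed genes had a mean of at least 1 TPM, and 33 were above 0 in both libraries; *SLC16A3* was listed at 0 in Rep1. The median gene of the set stood at 34.1 in Rep1 and 63.6 TPM in Rep2, beside a median of 3.51 and 11.7 TPM over the 14693 genes above 0 in at least 1 library. By mean level, 12 of the 34 stood at or above the 90th percentile of those genes and 7 below the 50th. Summed over the set, the level was 6711 in Rep1 and 7693 TPM in Rep2, or 0.671% and 0.769% of all TPM. The 14 enzymes from hexokinase to pyruvate kinase took 5683 in Rep1 and 5664 TPM in Rep2. These similar sums were made of different genes: *PKM* alone took 39.8% of the set's TPM in Rep1 and 2.92% in Rep2. Without *PKM*, the set summed to 4038 in Rep1 and 7468 TPM in Rep2.

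**Figure D1:**
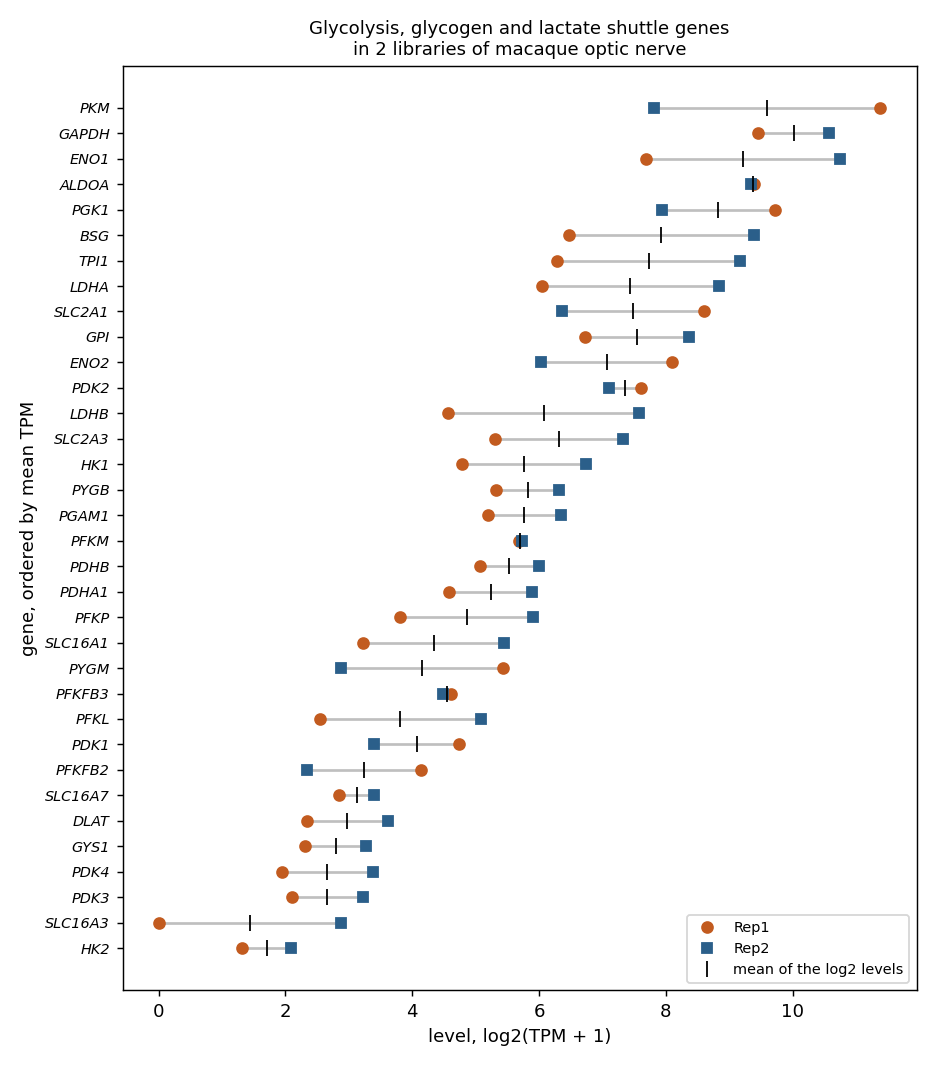
Level of each of the 34 listed genes in Rep1 (circles) and Rep2 (squares), as log2(TPM + 1), with the mean of the log2 levels as a black tick and genes ordered by mean TPM. *PKM*, *PGK1*, *SLC2A1* and *ENO2* sit to the right in Rep1, while *ENO1*, *BSG*, *TPI1* and *LDHA* sit to the right in Rep2.

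Glucose enters cells through facilitative transporters. *SLC2A1* (GLUT1), the carrier of glia and of the blood-brain barrier endothelium, was at 388.0 in Rep1 and 81.6 TPM in Rep2 (mean 235 ± 217 TPM, SD, n = 2). *SLC2A3* (GLUT3), the high-affinity carrier best known from neurons, was at 38.6 in Rep1 and 159 TPM in Rep2. The order of the carriers was opposite in the libraries: *SLC2A1* held 91.0% of their summed TPM in Rep1 and 34.0% in Rep2. Their mean difference in log2(TPM + 1) was 1.17, which is 0.694 of its standard error (SE) and so lay within the spread between the libraries. For such comparisons, the SE was built from the spread between Rep1 and Rep2 of the 200 genes nearest in mean level, and a difference was said to exceed the spread when it passed 2 SE and had the same sign in both libraries. *SLC2A1* lies at chr1:181595187-181628394 on the plus strand of the Mmul_10 genome, and *SLC2A3* at chr11:11576181-11592299, also on the plus strand. The 6 endothelial markers summed to 33.0 in Rep1 and 108 TPM in Rep2, with *VWF* at 0 in Rep1, and their part in the carriers' levels was not tested.

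Hexokinase traps glucose in the cell by phosphorylation. *HK1*, the form typical of brain, was at 26.5 in Rep1 and 106 TPM in Rep2, and *HK2*, the insulin-responsive form, at 1.497 and 3.267 TPM. *HK1* held 94.7% of their sum in Rep1 and 97% in Rep2, and the difference was 4.05 on the log2 scale, 2.40 SE, with the same order in both libraries. It exceeded the spread, although the difference was 1.88 SE, no longer past 2 SE, with a pseudocount of 0.1. The reads of *HK2* in Rep1 are known only to be at least 2. *GPI*, which turns glucose phosphate into fructose phosphate, was at 105 in Rep1 and 329 TPM in Rep2.

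Phosphofructokinase is the committed step of glycolysis and forms tetramers of muscle (*PFKM*), liver (*PFKL*) and platelet (*PFKP*) subunits. *PFKM* was nearly equal in the deposited values, at 50.6 in Rep1 and 51.9 TPM in Rep2 (mean 51.2 ± 0.896 TPM, SD, n = 2). *PFKP* was at 13.1 and 59.1 TPM and *PFKL* at 4.83 and 32.8 TPM. *PFKM* therefore held 73.9% of the subunits' TPM in Rep1 but 36.1% in Rep2, where *PFKP* led with 41.1%. None of the 3 subunit pairs differed beyond the spread, with differences of 0.537 to 1.18 SE.

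Aldolase and triose phosphate isomerase make the triose phosphates. *ALDOA*, the ubiquitous aldolase, was at 672 in Rep1 and 649 TPM in Rep2 (mean 660 ± 16.3 TPM, SD, n = 2) and ranked as the 4th gene of the set in both. *TPI1* was at 77.1 in Rep1 and 577 TPM in Rep2. The brain aldolase *ALDOC*, which is outside the set, was at 115 and 291 TPM, below *ALDOA* in both libraries.

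The steps from triose phosphate to phosphoglycerate yield NADH and ATP. *GAPDH*, which makes the NADH that lactate dehydrogenase later uses, was at 703 in Rep1 and 1525 TPM in Rep2. *PGK1*, the first ATP-making enzyme, was at 845 in Rep1 and 244 TPM in Rep2. *PGAM1*, which moves the phosphate group, was at 35.8 and 79.9 TPM. Set against *GAPDH* of the same library, *PGK1* was 1.20 times as high in Rep1 and 0.160 times as high in Rep2, a comparison that no scaling of a whole library can move.

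Enolase makes phosphoenolpyruvate, and a different isoenzyme led in each library. *ENO1* was at 204 in Rep1 and 1718 TPM in Rep2, where it was the most abundant gene of the set. *ENO2* was at 272 in Rep1 and 64.5 TPM in Rep2. *ENO2* thus held 57.2% of enolase TPM in Rep1 and 3.62% in Rep2. The mean difference, *ENO1* over *ENO2*, was 2.15 on the log2 scale (1.21 SE), with opposite signs in the libraries, so neither was shown to be higher. Of the 6 neuron markers, *SNAP25*, *SYT1* and *STMN2* (21.0 and 9.14 TPM) were higher in Rep1 along with *ENO2*. *RBFOX3* (1.64 and 1.87 TPM) and the axonal neurofilaments *NEFL* (3.63 and 3.65 TPM) and *NEFM* (7.48 and 15.9 TPM) were not. The part of these markers in the enolase shares was not tested. *ENO1* lies at chr1:215627773-215645190 and *ENO2* at chr11:7084725-7094977, both on the plus strand. Their coding sequences are identical at 74.4% of 1302 aligned bases. Reads from stretches that differ can therefore tell the isoenzymes apart. However, 18.4% of the 50-base windows of the *ENO1* transcript and 1.36% of those of *ENO2* are found elsewhere in Mmul_10. Coding bases 187 to 246, the least alike ungapped stretch of 60 bases, follow with the 34 differing bases in capitals.
ENO1: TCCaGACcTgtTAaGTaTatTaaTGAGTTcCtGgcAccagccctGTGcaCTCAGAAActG
ENO2: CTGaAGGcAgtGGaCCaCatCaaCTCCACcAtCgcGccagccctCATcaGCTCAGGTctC

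Pyruvate kinase makes pyruvate and ATP. *PKM* was at 2673 TPM in Rep1, the highest value of the set in that library, and at 225 TPM in Rep2, where it ranked 9th (mean 1449 ± 1731 TPM, SD, n = 2). Its SD was larger than its mean, so its level is known only as a range between these libraries. The same limit holds for each of the 9 genes whose SD was at least as large as the mean. These were *PKM*, *ENO1*, *TPI1*, *LDHA*, *LDHB*, *BSG*, *PFKL*, *PYGM* and *SLC16A3*. The difference of *PKM* was 3.56 in log2(TPM + 1), the largest toward Rep1 among the 34 genes. It did not rest on few reads, since the values correspond to at least 3668 reads in Rep1 and 5305 in Rep2. However, 77.8% of the 50-base windows of its transcript are found elsewhere in Mmul_10, so the value depends on how reads with several matches were counted, which is not given in the sources used here. *PKM* lies at chr7:48935313-48968834 on the minus strand. It contains 2 mutually exclusive exons of 167 bases, of which the first makes the M1 form, typical of muscle and neurons, and the second the M2 form, typical of proliferating cells and astrocytes. The table holds 1 value for the gene, so the forms could not be separated. The exons are printed below with their 62 differing bases in capitals; RefSeq places the M1 exon at chr7:48939626-48939792 in 4 of 7 coding transcripts, and the M2 exon at chr7:48939057-48939223 in the other 3.
PKM M1 exon: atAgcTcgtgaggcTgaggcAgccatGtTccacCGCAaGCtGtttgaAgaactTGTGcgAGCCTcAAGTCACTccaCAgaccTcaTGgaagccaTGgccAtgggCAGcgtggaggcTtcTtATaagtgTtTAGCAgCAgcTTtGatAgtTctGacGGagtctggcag
PKM M2 exon: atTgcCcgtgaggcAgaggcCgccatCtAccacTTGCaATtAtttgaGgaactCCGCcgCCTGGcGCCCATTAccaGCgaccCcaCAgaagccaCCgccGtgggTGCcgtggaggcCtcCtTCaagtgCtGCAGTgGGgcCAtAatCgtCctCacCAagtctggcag

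Lactate dehydrogenase interconverts pyruvate and lactate. *LDHA*, whose subunit favours lactate production and which glia express strongly, was at 64.9 in Rep1 and 458 TPM in Rep2. *LDHB*, whose subunit is typical of tissues that burn lactate, was at 22.8 in Rep1 and 190 TPM in Rep2. Both genes were lower in Rep1, yet their ratio hardly moved: *LDHA* was 2.85 times as high as *LDHB* in Rep1 and 2.41 times in Rep2, or 74.0% and 70.7% of their summed TPM. The order was the same in both libraries, but the mean difference of 1.37 on the log2 scale was 0.832 SE, within the spread of genes at these levels. Within the libraries the difference was 1.47 in Rep1 and 1.27 in Rep2. The SE does not use this pairing by library, so it does not measure how far the difference moved. The reads of *LDHB* in Rep1 are known only to be at least 4, which does not show that they were few. *LDHA* lies at chr14:47176916-47189970 and *LDHB* at chr11:23007599-23030687, both on the minus strand. Copies elsewhere in the genome match 64.4% of the *LDHA* windows and 65.6% of the *LDHB* windows. The coding sequences are identical at 67.4% of 995 aligned bases. The least alike ungapped stretch of 60 bases, from coding base 847 of *LDHA* and 763 of *LDHB*, is shown with its 29 differing bases in capitals.
LDHA: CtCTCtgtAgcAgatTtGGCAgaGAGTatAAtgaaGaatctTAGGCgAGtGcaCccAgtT
LDHB: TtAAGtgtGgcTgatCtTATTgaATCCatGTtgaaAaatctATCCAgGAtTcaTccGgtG

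Lactate crosses membranes through monocarboxylate transporters that need the chaperone basigin, encoded by *BSG*. *BSG* was the most abundant gene of this group, at 88.0 in Rep1 and 668 TPM in Rep2. *SLC16A1* (MCT1), the carrier of oligodendrocytes, astrocytes and endothelium, was at 8.38 in Rep1 and 42.8 TPM in Rep2. *SLC16A7* (MCT2), the high-affinity carrier of neurons and axons, was at 6.20 and 9.59 TPM. *SLC16A3* (MCT4), the low-affinity exporter of glycolytic cells such as astrocytes, was listed at 0 in Rep1 and was at 6.32 TPM in Rep2. *SLC16A1* led in both libraries, with 57.5% and 72.9% of the carriers' TPM, although it exceeded neither *SLC16A7* (0.721 SE) nor *SLC16A3* (1.78 SE) beyond the spread. *BSG* was 10.5 times as high as *SLC16A1* in Rep1 and 15.6 times in Rep2. *EMB*, the alternative chaperone and outside the set, was at 1.83 and 31.7 TPM. The astrocyte markers *AQP4* (3.26 and 398 TPM) and *GFAP* (658 and 4331 TPM) and each of the 8 oligodendrocyte markers were lower in Rep1 together with *BSG*, *SLC16A1*, *LDHA* and *LDHB*, and their part in these differences was not tested.

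**Figure D2:**
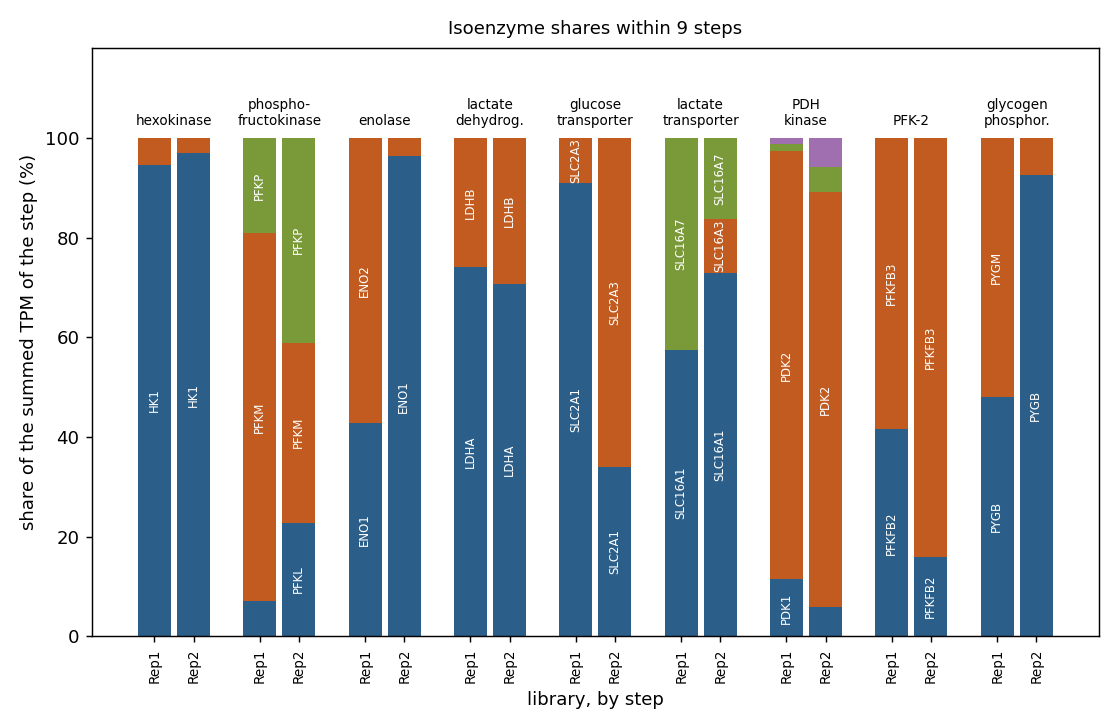
Share of each isoenzyme in the summed TPM of its step (%, 100% being the sum of the genes shown), for 9 steps and each library; unlabelled segments are the members of the step with the smallest shares. The same gene leads in both libraries for hexokinase, lactate dehydrogenase, lactate transporter, pyruvate dehydrogenase (PDH) kinase and the regulatory PFK-2, and a different gene leads for the other 4 steps.

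Pyruvate enters the citric acid cycle through the pyruvate dehydrogenase complex. *PDHA1*, the catalytic subunit that the kinases phosphorylate, was at 23.0 in Rep1 and 58.2 TPM in Rep2. *PDHB*, its partner, was at 32.5 and 62.7 TPM, and *DLAT*, the acetyltransferase core, at 4.07 and 11.2 TPM. *PDHA1* was 0.707 times as high as *PDHB* in Rep1 and 0.927 times in Rep2, so the subunits of the same enzyme stayed close to each other in both.

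Pyruvate dehydrogenase kinases switch the complex off and keep pyruvate available for lactate. *PDK2* was at 194 in Rep1 and 136 TPM in Rep2 (mean 165 ± 40.9 TPM, SD, n = 2). *PDK1*, a target of hypoxia signalling, was at 25.8 and 9.49 TPM. The other kinases were low: *PDK3* was at 3.28 and 8.36 TPM, and *PDK4*, which fasting induces in many tissues, at 2.86 and 9.40 TPM. *PDK2* held 85.9% of kinase TPM in Rep1 and 83.3% in Rep2. It exceeded each of the other 3 beyond the spread, by 3.29 over *PDK1* (2.03 SE), 4.69 over *PDK3* (2.64 SE) and 4.69 over *PDK4* (2.64 SE) on the log2 scale. With the 500 nearest genes in place of 200, *PDK2* over *PDK1* came to 1.996 SE and no longer passed. Together with *HK1* over *HK2*, these were the 4 of 18 isoenzyme pairs that exceeded the spread. None of the transcript windows of *PDK2* occur elsewhere in the genome, but *PDK2* overlaps *SAMD14* on the opposite strand, and the counting is not stated to use strand.

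**Figure D3:**
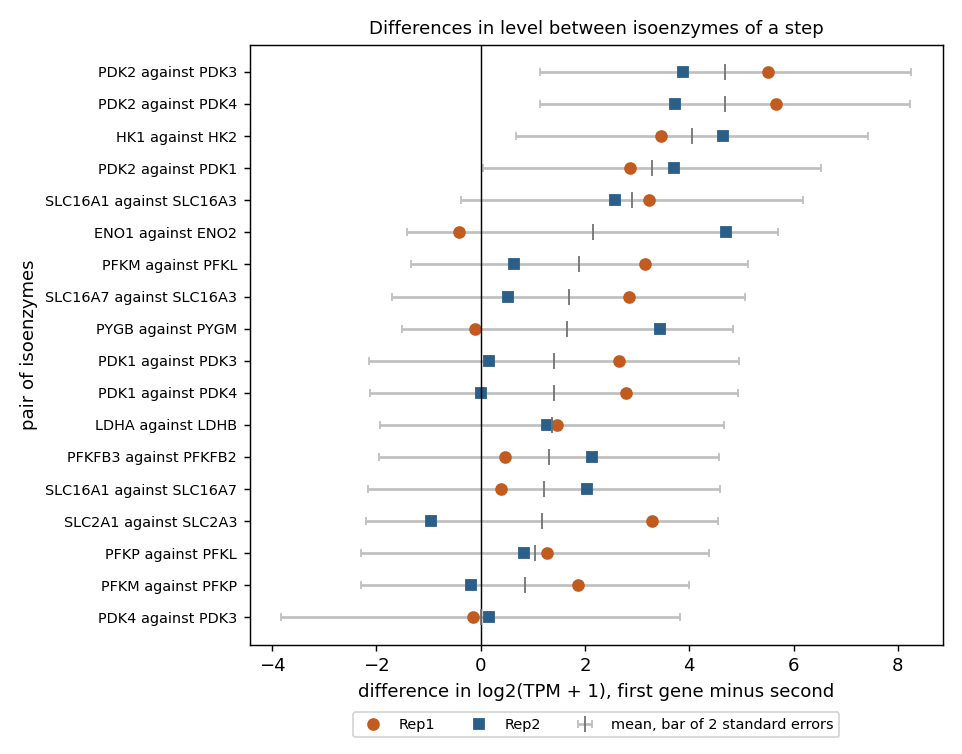
Difference in log2(TPM + 1) between isoenzymes of a step, first gene minus second, in Rep1 (circles) and Rep2 (squares), with the mean as a grey tick and a bar of 2 standard errors on each side. The bar stays right of 0 for 4 of the 18 pairs, namely *PDK2* against each other kinase and *HK1* against *HK2*; 5 pairs have opposite order in the libraries.

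The bifunctional phosphofructokinases set the level of the sugar phosphate that activates phosphofructokinase. *PFKFB3*, the strongly kinase-biased form, was at 23.5 in Rep1 and 21.4 TPM in Rep2 (mean 22.4 ± 1.46 TPM, SD, n = 2). On the deposited scale *ALDOA*, *PFKM* and *PFKFB3* had the smallest differences of the set, but after median-of-ratios scaling (described with the differences across the set) they were 1.24, 1.13 and 1.27 higher in Rep1 on the log2 scale. *PFKFB2*, the heart form, was at 16.7 and 4.06 TPM. *PFKFB3* held 58.5% of their TPM in Rep1 and 84.0% in Rep2, and the pair differed by 0.802 SE.

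Glycogen phosphorylase releases glucose units from glycogen. *PYGB*, the brain form, was at 39.0 in Rep1 and 78.7 TPM in Rep2. *PYGM*, the muscle form, which astrocytes also carry, was at 42.2 in Rep1 and 6.33 TPM in Rep2. The forms were thus nearly level in Rep1, where *PYGM* held 52.0%, while *PYGB* held 92.6% in Rep2, and the mean difference was 1.05 SE. Of the 9 listed skeletal muscle markers, which summed to 29.6 and 84.3 TPM, *ACTA1* was at 6.54 in Rep1 and 0.127 TPM in Rep2 and *CKM* at 0.596 TPM and 0, while *DES* (20.2 and 49.6 TPM), *TNNT3* (0.958 and 28.6 TPM), *TNNC2* (1.33 and 5.40 TPM) and *MYLPF* (0 and 0.571 TPM) were higher in Rep2 and *MYH1*, *MYH2* and *MB* were at 0 in both. Their part in the phosphorylase shares was not tested. *PYGB* lies at chr10:41313081-41371274 on the minus strand and overlaps *ABHD12* on the opposite strand, and *PYGM* lies at chr14:9782903-9796236 on the plus strand. Neither transcript has a window found elsewhere in the genome. Their coding sequences are identical at 78.4% of 2526 aligned bases, the highest identity among the 18 pairs. Coding bases 2341 to 2400, the least alike ungapped stretch of 60 bases, are shown with the 26 differing bases in capitals.
PYGB: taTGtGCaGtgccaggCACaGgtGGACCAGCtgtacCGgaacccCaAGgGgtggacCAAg
PYGM: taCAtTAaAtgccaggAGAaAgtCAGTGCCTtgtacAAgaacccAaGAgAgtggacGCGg

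Glycogen synthase builds glycogen. *GYS1*, the form of muscle and brain, was at 3.96 in Rep1 and 8.65 TPM in Rep2, one of the lowest levels of the set. Its reads in Rep1 are known only to be at least 2. *GYS2*, the liver form and outside the set, was at 0 in both libraries.

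Across the 34 genes, 7 were at least 2-fold higher in Rep1 on the log2(TPM + 1) scale, 18 were at least 2-fold higher in Rep2 and 9 lay within 2-fold. The background was 14.8% of 14693 genes higher in Rep1 and 51.3% higher in Rep2, against 20.6% and 52.9% of the set. Among the 11754 genes averaging 1 TPM or more, a level that all 34 reached, 18.2% were higher in Rep1 and 58.7% in Rep2. The median difference, Rep1 minus Rep2, was -1.12 for the set, -1.07 for all genes and -1.52 for the 11754. The 7 genes higher in Rep1 were *PKM*, *PYGM*, *SLC2A1*, *ENO2*, *PFKFB2*, *PGK1* and *PDK1*. The widest differences toward Rep2 were those of *ENO1* (-3.07), *LDHB* (-3.01), *BSG* (-2.91) and *TPI1* (-2.89). Median-of-ratios scaling estimated an offset of Rep1 against Rep2 of -1.19 on the log2 scale and removed it, which raised Rep1 against Rep2. On the scaled values, 11 genes of the set (32.4%) were at least 2-fold higher in Rep1 and 8 (23.5%) in Rep2. The shares of all genes were 23.7% and 33.8%. The order of these shares was thus opposite in the set and in all genes on the scaled values, and the same on the deposited values. However, the scaling used only genes above 0 in both libraries, and the scaled median of all genes was -0.38. All genes include those at 0 in Rep1, which can only count toward Rep2, while the set holds 1 such gene. No scaled background of genes averaging 1 TPM or more was computed, so the opposite order is not shown to be a trait of the set. The 7 genes named above stayed higher in Rep1 on the scaled values, which was fixed in advance because the scaling raised Rep1. The direction of *HK2*, *PFKM*, *GAPDH*, *PGAM1*, *SLC16A7*, *PDHB*, *PYGB* and *GYS1* turned from Rep2 to Rep1.

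**Figure D4:**
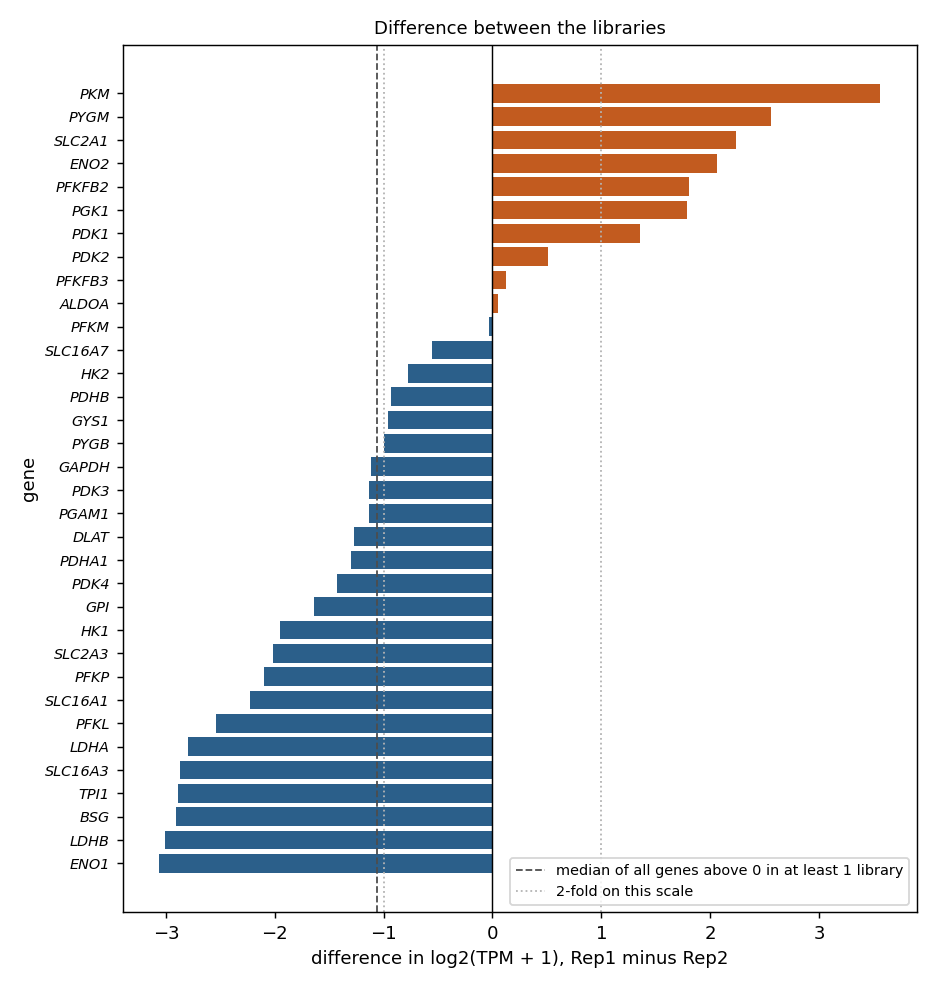
Difference in log2(TPM + 1), Rep1 minus Rep2, for each listed gene, with orange bars for genes higher in Rep1 and blue bars for genes higher in Rep2. Dotted lines mark 2-fold, and the dashed line at -1.07 marks the median of all genes; 7 bars pass the right dotted line and 18 pass the left, and the directions named in the text as turning with the scaling do not hold on the scaled values.

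A list of 52 further genes of the same pathways was read for context. Of these, 51 were listed and 43 were above 0 in at least 1 library, and 7 were at least 2-fold higher in Rep1, 21 higher in Rep2 and 15 within 2-fold, with a median difference of -0.97. Among the further isoenzymes of glycolysis, *HK3*, the hexokinase of myeloid cells, was at 19.8 in Rep1 and 1.96 TPM in Rep2. *ENO3*, the muscle enolase, was at 56.7 and 6.20 TPM, and *PGAM2*, the muscle mutase, at 0 and 2.01 TPM. Of the carriers, *SLC2A4*, the insulin-responsive glucose transporter, was at 0 and 0.869 TPM, and *SLC16A8*, the lactate carrier of the retinal pigment epithelium, at 0 and 4.12 TPM. *HIF1A*, which encodes the oxygen-regulated subunit of a factor that drives many glycolysis genes, was the most abundant of the 52 by mean level, at 1359 in Rep1 and 125 TPM in Rep2.

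Genes at the mitochondrial side differed among themselves. The pyruvate carrier subunits were at 7.53 in Rep1 and 75.1 TPM in Rep2 for *MPC1* and at 27.2 and 54.4 TPM for *MPC2*. *DLD*, the shared dehydrogenase of the complex, was at 111 and 90.7 TPM and *PDHX*, its binding protein, at 3.41 and 32.9 TPM. *PDP1*, the phosphatase that reverses the kinases, was at 45.2 and 22.3 TPM, so *PDK2* stood above it in both libraries. *PC*, the carboxylase by which astrocytes refill the citric acid cycle, was nearly level at 23.7 and 21.7 TPM. For the glycerol phosphate shuttle, *GPD2* was at 4.16 and 16.5 TPM, and *GPD1L*, the homologue of *GPD1*, at 1.59 and 50.2 TPM. *PFKFB4* was at 0 in Rep1 and 2.09 TPM in Rep2.

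Further genes of glycogen were found on both sides. *UGP2*, which makes the glucose donor of glycogen synthesis, was at 281 in Rep1 and 77.7 TPM in Rep2, and *GSK3B*, a kinase that inhibits glycogen synthase, at 192 and 26.6 TPM. The related *GSK3A* was at 26.6 and 3.88 TPM. *GYG1*, the primer of glycogen, was at 8.31 and 57.7 TPM, and *GBE1*, the branching enzyme, at 19.6 and 24.7 TPM. The phosphoglucomutases *PGM1* and *PGM2* were at 66.1 and 38.2 TPM and at 1.80 and 24.7 TPM, respectively. Of the 5 phosphorylase kinase subunits, *PHKG2* was at 70.5 and 58.4 TPM, *PHKB* at 17.5 and 23.7 TPM and *PHKA2* at 6.68 and 12.2 TPM, each within 2-fold. The other two lay apart in opposite directions, *PHKA1* at 11.6 and 1.17 TPM and *PHKG1* at 0 and 4.93 TPM; *PHKA2*, *PHKA1* and *PHKG1* were named after their values were seen. The liver phosphorylase *PYGL* was at 12.9 and 7.13 TPM, and *G6PC3*, the ubiquitous glucose phosphatase, at 7.46 and 56.4 TPM.

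The sequence of the genes limits some of these values. Of the 34 transcripts, 17 had no 50-base window elsewhere in Mmul_10 and 13 had over 10% of their windows there. These were *PGAM1* (84.4%), *PKM*, *LDHB*, *LDHA*, *SLC16A3* (57.7%), *ALDOA* (57.5%), *PGK1* (46.9%), *GPI* (36.7%), *GAPDH* (35.7%), *SLC2A3* (34.8%), *ENO1* (18.4%), *DLAT* (17.8%) and *PDHA1* (11.8%). These copies touched genes at both ends of the comparison, *PKM* and *PGK1* being higher in Rep1 and *ENO1*, *LDHA* and *LDHB* in Rep2, and their part in the differences was not tested. *SLC2A1*, *PYGM* and *PFKFB2*, all higher in Rep1, had no such window. On the gene span, 10 of the 34 overlapped a gene on the opposite strand and 5 a gene on the same strand, such as *ENO2* with *LRRC23*.

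The 250 bases before the annotated start of each gene were read for ACGTG and GCGTG, the core letters of the hypoxia response element, on either strand. ACGTG was found in 14 of 34 genes (41.2%) and in 19.1% of 16263 promoters of the same length. GCGTG was found in 10 genes (29.4%) and in 37.5% of promoters, and either motif in 18 genes (52.9%) and in 48.4%. *PDHB* held 5 matches, and *PGK1*, *LDHA*, *GAPDH*, *PGAM1*, *SLC16A1* and *PDHA1* each held 3. Of these, *PGK1* and *LDHA* are shown, which differed in opposite directions between the libraries. Their upstream sequences are printed from RefSeq gene starts on Mmul_10, at chrX:74831528-74831777 on the plus strand and chr14:47189971-47190220 on the minus strand, with matches in capitals; in the last match block of *LDHA* the motif is read on both strands and overlaps itself.
PGK1: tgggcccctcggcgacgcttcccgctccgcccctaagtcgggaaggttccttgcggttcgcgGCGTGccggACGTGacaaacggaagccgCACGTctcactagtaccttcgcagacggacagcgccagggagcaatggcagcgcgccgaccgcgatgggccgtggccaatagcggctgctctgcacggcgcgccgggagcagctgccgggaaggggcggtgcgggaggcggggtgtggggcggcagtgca
LDHA: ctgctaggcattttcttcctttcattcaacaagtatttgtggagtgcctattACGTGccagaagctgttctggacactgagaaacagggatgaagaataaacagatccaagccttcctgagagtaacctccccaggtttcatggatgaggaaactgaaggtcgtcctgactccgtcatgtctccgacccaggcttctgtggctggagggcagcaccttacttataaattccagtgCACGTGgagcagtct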

How the data were processed

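Total RNA from macaque optic nerves was sequenced as 2 libraries. The authors extracted RNA with TRIzol chemistry and an on-column DNase step, used the SMARTer v4 kit for ultra-low input to make cDNA, trimmed reads with Trim Galore 0.6.6, mapped them to Mmul_10 with STAR 2.7.1a and counted them per gene with featureCounts 1.5.3. The deposited values are TPM, which the authors computed from those counts; each column sums to 1000000. Nothing ties the columns Rep1 and Rep2 to a sample title. Strand use and the treatment of reads with several matches are not given in the sources used here.

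Genes were matched by symbol. Levels are TPM per library, mean ± SD (n = 2) and percentiles over the 14693 genes that either library placed above 0; differences are on the log2(TPM + 1) scale (pseudocount 1), which understates changes of low genes. With 2 libraries of 1 condition the smallest exact two-sided p would be 0.5, so no test was made. Relative depth was recovered from ratios of TPM: 99.9% of 10168 genes gave whole reads within a relative tolerance of 1e-12. Read numbers are lower bounds, since a factor common to both libraries cancels in the ratio, and they can lie far below the true number. Spread per library was estimated from the 200 genes nearest in mean level. Their differences were measured from 0, so a shift common to all genes widens the SE. Such a shift largely cancels between 2 genes of the same library. The SE adds the variances of both genes and does not use this pairing. The spread estimate and the depth step were checked on simulated data. For the spread, the simulated libraries had no shift between them and a smaller SD, so that check does not cover the shift. Coordinates, transcripts and coding sequences came from RefSeq on Mmul_10, and coding sequences were aligned with Biopython 1.88; Python 3.11, numpy 2.4.6, pandas 2.3.3 and matplotlib 3.10.9 were used.

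The genes, lists and alternatives were chosen with earlier results of these data known. Each listed gene of the set is named; of the further 52 genes, those with a mean of at least 10 TPM are named, with *PGAM2*, *PYGL*, *GYS2*, *SLC2A4*, *SLC16A8* and *PFKFB4*, fixed by name. Marker lists of 10 cell types were read; the sums not given elsewhere were, in Rep1 and Rep2, 224 and 477 TPM for microglia, 4537 and 1098 TPM for erythrocytes, 29.6 and 84.3 TPM for skeletal muscle, 24.6 and 235 TPM for adipocytes, and 104 and 84.3 TPM for retinal pigment epithelium.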

Additional observations from a re-analysis of the deposited data

How the results depend on the processing

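Median-of-ratios scaling turned the median difference of the set from -1.12 to 0.038 and changed the counts at least 2-fold higher in Rep1 and in Rep2 from 7 and 18 to 11 and 8. The summed level of the set, 0.720% of all TPM on average, was 0.908% with the 10 most abundant genes left out. With a pseudocount of 0.1, the difference between *PDK4* and *PDK3* turned from 0.0011 to -0.0061 SE. Of the 18 isoenzyme pairs, 4 exceeded the spread; this was 3 with a pseudocount of 0.1 (*HK1* over *HK2* at 1.88 SE), 3 with the 500 nearest genes (*PDK2* over *PDK1* at 1.996 SE), 5 when the SD was measured from the average difference (adding *SLC16A1* over *SLC16A3* at 2.32 SE) and 4 when genes averaging under 1 TPM were left out, and each of these calls other than the added pair was among the original 4. The mean TPM of *PFKM*, *ALDOA* and *PFKFB3*, whose SD was small, moved by over 1 SD under either scaling. Leaving out a library moved no mean by more than 1 SD, but with 2 libraries each lies 0.707 SD from the mean, so this says nothing about stability. The libraries could not be paired across conditions, because both belong to 1 condition. The isoenzymes of a pair were read in the same library, but the SE does not use that pairing. The shallow Rep1 limits low genes most, such as *HK2*, *DLAT*, *PDK4* and *GYS1*. Their reads there are known only as a lower bound of 2, which can lie far below the true number.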
